A study of Mus musculus with 9 samples.

Results

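The integrin subunit genes that carry leukocyte adhesion were followed in interferon-treated mouse macrophages of 3 genotypes. They were taken by symbol from the deposited table, 9 genes of the 29763 named there: Itgal, Itgam, Itgax and Itgb2 of the β2 integrins, Itga4, Itgb1 and Itgb7 of the α4 integrins, and Itgav with Itgb5 of the αv integrins. All 9 were found, and all 9 passed the filter on low values. The macrophages came from bone marrow differentiated for 7 days in medium holding 30% L929 supernatant, which supplies the growth factor Csf1. Interferon-gamma was then given at 40 ng/ml for 12 h. The genotypes were Ndufa4l3-miR147-deficient (Ndufa4l3-miR147 KO, also called Nmes1-deficient), Ndufa4-deficient (Ndufa4 KO) and wild type (WT), with 3 libraries of polyadenylated RNA each. Ndufa4 is a small protein associated with complex IV of the respiratory chain, and the Ndufa4l3 gene encodes a related protein and carries miR-147. Every library was stimulated, so no value describes the response to interferon. The labels call the replicates technical, so p-values measure only the spread between libraries and not that between mice.

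Integrins are adhesion receptors made of 1 α and 1 β subunit, and neither subunit reaches the cell surface in quantity without a partner. The β subunit Itgb2 (CD18) is largely restricted to leukocytes and pairs with Itgal (CD11a) in the receptor for ICAMs, with Itgam (CD11b) in complement receptor 3, which macrophages use to take up iC3b-coated particles, and with Itgax (CD11c) in complement receptor 4, much used as a dendritic cell marker. Itga4 pairs with Itgb1 to bind VCAM-1 and fibronectin and with Itgb7 to bind MAdCAM-1 in the gut, while Itgav pairs with Itgb5 and other β subunits to bind vitronectin, Mfge8-coated dying cells and latent TGF-β. Talin and kindlin binding to the β tail switches integrins to their active form, and Src family kinases and Syk carry the signal inwards once a ligand is bound.

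Values are TPM, an abundance per length that makes levels of different genes comparable within a library. Fold changes are on the log2(TPM + 1) scale, given as estimate ± SE from limma over the 11133 genes that reached 1 TPM in 3 or more libraries, and a gene was called at an adjusted p under 0.05. TPM keep no read depth, so depth is unknown. The TPM of named genes summed to between 913474 and 921678 per library, and 10809 to 10959 genes reached 1 TPM. Replicate 3 of the Ndufa4 KO stood apart, with an upper quartile of 7.79 TPM over all named genes, against 9.24 to 9.84 TPM in the other 8 libraries. Its values deviated from those of replicates 1 and 2 with transcript length, so results are given with and without it where it matters. AA467197, the symbol of Ndufa4l3 in the table, stood at 2.90, 2.21 and 4.50 TPM in Ndufa4l3-miR147 KO libraries, at 527, 472 and 519 TPM in Ndufa4 KO libraries and at 365, 358 and 355 TPM in WT libraries. Ndufa4 was listed at 0 in 7 libraries, WT included, and at most at 0.621 TPM in the others, so its values do not check the Ndufa4 KO label. Of 10 macrophage markers listed, Csf1r, Cd68, Lyz2 and Adgre1 (listed as Emr1) were abundant throughout, while Marco and Vsig4 stayed under 1 TPM in every library. The list summed to 8693 to 8885 TPM in Ndufa4l3-miR147 KO, 9630 to 10117 TPM in Ndufa4 KO and 9115 to 9254 TPM in WT libraries. Lyz2 was the largest part of that sum, at means of 4094 TPM (Ndufa4l3-miR147 KO), 5414 TPM (Ndufa4 KO) and 4585 TPM (WT). Cd14, Mertk and Mrc1 were lower in the Ndufa4 KO than in WT, as given below.

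The 3 α partners of Itgb2 lie on chromosome 7. In GENCODE M21 (build GRCm38), Itgam spans chr7:128062640-128118491 with 30 exons in its longest coding transcript, Itgax spans chr7:128129547-128150657 with 30 exons, and Itgad, a further β2 partner, spans chr7:128154376-128223816, all on the forward strand. Itgal lies apart at chr7:127296260-127335138. The neighbours Itgam and Itgax differed in behaviour between genotypes, and Itgb7 was the member that fell, so the starts of these 3 genes are shown. Each window runs from 250 bases before to 50 bases after the RefSeq start (GRCm38.p6), read 5′ to 3′ on the strand of the gene, which is forward for Itgax and Itgam and reverse for Itgb7. Capitals mark matches to the 7 motifs searched.
Itgax, chr7:128129300-128129599: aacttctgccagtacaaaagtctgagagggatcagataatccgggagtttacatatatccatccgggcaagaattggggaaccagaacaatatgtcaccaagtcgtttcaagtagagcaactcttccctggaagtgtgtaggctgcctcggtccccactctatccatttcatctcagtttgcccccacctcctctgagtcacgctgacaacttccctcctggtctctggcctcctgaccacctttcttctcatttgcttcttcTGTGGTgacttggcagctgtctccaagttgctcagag
Itgam, chr7:128062390-128062689: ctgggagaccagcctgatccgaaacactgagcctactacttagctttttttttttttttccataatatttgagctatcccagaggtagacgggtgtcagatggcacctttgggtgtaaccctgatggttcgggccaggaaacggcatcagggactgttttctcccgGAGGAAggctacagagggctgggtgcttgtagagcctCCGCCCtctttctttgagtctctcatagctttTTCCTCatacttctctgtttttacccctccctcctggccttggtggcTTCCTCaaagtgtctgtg
Itgb7, chr15:102231886-102232185: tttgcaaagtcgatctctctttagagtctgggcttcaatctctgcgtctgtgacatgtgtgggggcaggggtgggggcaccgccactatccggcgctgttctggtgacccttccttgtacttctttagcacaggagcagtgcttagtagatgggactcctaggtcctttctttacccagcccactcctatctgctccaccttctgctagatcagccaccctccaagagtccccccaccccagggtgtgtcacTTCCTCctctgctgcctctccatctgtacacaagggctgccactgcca

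The capitals in the Itgax window are 1 match to the RUNX letters TGTGGT, at bases 14 to 19 after the start. The Itgam window holds the PU.1 core GAGGAA at −84 to −79 and its reverse complement TTCCTC at −15 to −10 and at 33 to 38, and the SP1 letters GGGCGG as their reverse complement at −47 to −42. The Itgb7 window holds TTCCTC at 3 to 8. Both strands were searched, and no match overlapped another. Of 32851 RefSeq promoters of the same length, 28.3% held GAGGAA, 16.8% held TGTGGT and 35.7% held GGGCGG. The interferon-gamma activated site TTCNNNGAA (8.30% of promoters), the paired GAAA runs of the interferon-stimulated response element, 2 bases apart (3.44%), the TATA letters TATAAA (13.6%) and the E-box CACGTG (7.15%) had no match in the windows of the 7 integrin genes found in the promoter table. A match is a run of letters and not a bound site.

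The same subunits led in every genotype, and Itgax was by far the least abundant. In WT libraries the mean order was Itgb2 (515 ± 7.94 TPM, SD, n = 3), Itgb1 (325 ± 5.77 TPM), Itgam (160.1 ± 1.66 TPM), Itgav (107 ± 2.49 TPM), Itgb5 (68.1 ± 2.97 TPM), Itgb7 (63.7 ± 1.56 TPM), Itga4 (45.6 ± 2.32 TPM), Itgal (40.8 ± 1.70 TPM) and Itgax (3.27 ± 0.0386 TPM). Among WT neighbours in this order the library ranges overlapped for Itgb5 and Itgb7 and for no other pair. In Ndufa4l3-miR147 KO libraries Itgal and Itga4 overlapped. In Ndufa4 KO libraries Itgav overlapped Itgb5, Itgb5 overlapped Itgal, and Itgal overlapped Itgb7. Itgb2 stood at percentile 97.4 of the kept genes in Ndufa4l3-miR147 KO, 97.8 in Ndufa4 KO and 97.3 in WT means. Itgax stood at percentile 18.5 in Ndufa4l3-miR147 KO, 29.8 in Ndufa4 KO and 15.0 in WT.

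**Figure D1:**
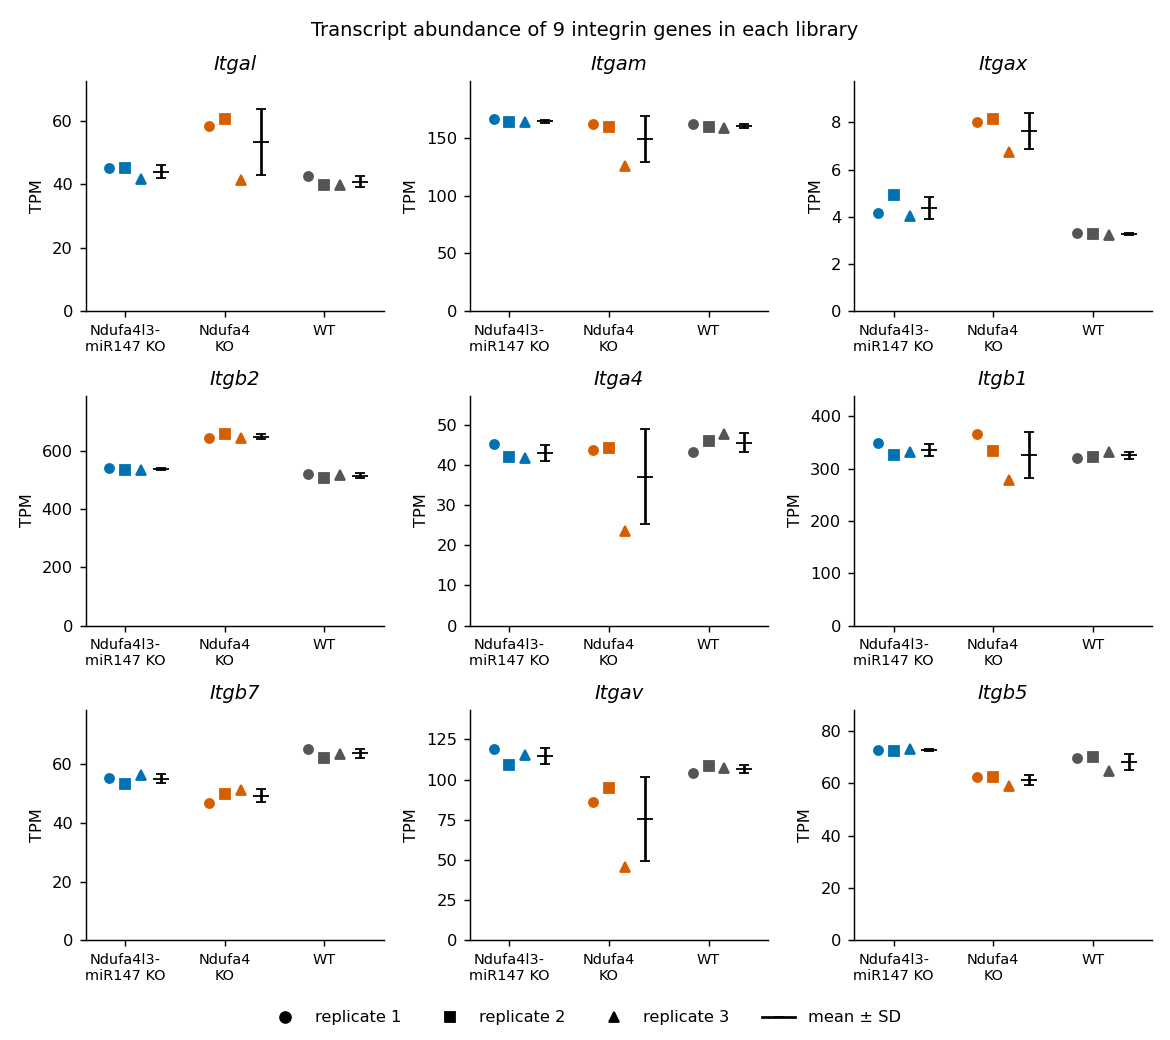
TPM of the 9 integrin genes in each library (vertical axes from 0, 1 panel per gene); symbols are replicates 1 to 3 of Ndufa4l3-miR147 KO, Ndufa4 KO and WT, and bars are mean ± SD over 3 libraries. Itgax and Itgb2 are highest and Itgb7 lowest in the Ndufa4 KO, and replicate 3 of the Ndufa4 KO lies low for Itgal, Itgam, Itga4, Itgb1 and Itgav.

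Against WT, the Ndufa4 KO showed more Itgax and Itgb2 and less Itgb7. These 3 of 9 members were called, where 8.59% of all genes were called, 2 of them higher (2.83% of all genes) and 1 lower (5.76%). Itgax, the α subunit of complement receptor 4, had 8.0, 8.13 and 6.75 TPM in Ndufa4 KO libraries, against 3.31, 3.28 and 3.23 TPM in WT libraries. Each Ndufa4 KO library lay above the highest WT library, and the means differed 2.33-fold. On the log2(TPM + 1) scale, which understates the change of a gene this low, the difference was 1.01 ± 0.11 (limma adjusted p = 0.00122), and it was called in all 21 alternative settings, at 0.61 to 1.19. Of the 31-base words of the Itgax transcript, 12.7% also occur in Itgad, which was listed at 0.601 TPM at most. Such words could move reads between the paralogs.

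Itgb2, the shared β2 subunit, had 645, 658 and 643 TPM in Ndufa4 KO libraries, against 521, 506 and 517 TPM in WT libraries. No Ndufa4 KO library overlapped a WT library, the means differed 1.26-fold, and the log2 difference was 0.33 ± 0.04 (limma adjusted p = 0.00122), called in all 21 alternatives. Itgb7, which gives the α4 chain its gut-homing form, had 46.9, 49.9 and 51.2 TPM in Ndufa4 KO libraries, against 65.4, 62.4 and 63.4 TPM in WT libraries. It fell by 0.36 ± 0.05 on the log2 scale (limma adjusted p = 0.00618), to 0.775 of the WT mean, and this too was called in all 21 alternatives. Without replicate 3 of the Ndufa4 KO the log2 differences of the 3 genes were 1.08, 0.34 and −0.39.

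The other β2 partners did not follow Itgax as clearly. Itgal, the α subunit of the ICAM receptor, had 58.2, 60.5 and 41.3 TPM in Ndufa4 KO libraries, against 42.7, 39.8 and 39.8 TPM in WT libraries. Replicates 1 and 2 lay well above WT, while replicate 3 lay among the WT libraries. Its log2 difference of 0.36 ± 0.13 missed the threshold (limma adjusted p = 0.117), and without replicate 3 of the Ndufa4 KO it was 0.53 ± 0.06 and was called (limma adjusted p = 0.00132). Itgam, the α subunit of complement receptor 3, had 162, 159 and 126 TPM in Ndufa4 KO libraries, against 162, 159.7 and 159 TPM in WT libraries. Its log2 difference was −0.11 ± 0.09 with a 95% interval of −0.31 to 0.08 (limma adjusted p = 0.439), and without replicate 3 of the Ndufa4 KO it was 0.00. In the annotation 74.1% of the 31-base words of the Itgam transcript recur in other genes, mainly the overlapping readthrough gene Gm49368, which was not analysed here.

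Among the remaining members, Itgav and Itga4, the longest transcripts, varied most. Itgav, the vitronectin receptor α chain, had 86.1, 94.6 and 45.5 TPM in Ndufa4 KO libraries, against 104, 109 and 107 TPM in WT libraries. All Ndufa4 KO libraries lay below all WT libraries, and the log2 difference of −0.56 ± 0.22 was not called (limma adjusted p = 0.153). Without replicate 3 of the Ndufa4 KO the difference was smaller, −0.24 ± 0.06, and was called (limma adjusted p = 0.0264). Itga4 had 43.8, 44.1 and 23.5 TPM in Ndufa4 KO libraries, against 43.1, 45.9 and 47.7 TPM in WT libraries. Its log2 difference was −0.34 ± 0.20 (limma adjusted p = 0.320) and −0.05 without replicate 3 of the Ndufa4 KO. Exons of Itga4 overlap the antisense gene Cerkl, and whether strand was used in the quantification is not given in the sources used here.

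Itgb1, the common β1 chain, had 366, 333 and 279 TPM in Ndufa4 KO libraries, against 321, 322 and 332 TPM in WT libraries, with overlapping ranges and a log2 difference of 0.00 ± 0.09, 95% interval −0.20 to 0.19 (limma adjusted p = 0.978). Itgb5, the β chain of the vitronectin receptor, had 62.6, 62.3 and 58.9 TPM in Ndufa4 KO libraries, against 69.8, 69.9 and 64.7 TPM in WT libraries. Its libraries did not overlap, but the difference of −0.15 ± 0.05 was not called (limma adjusted p = 0.113). Libraries of Ndufa4 KO and WT did not overlap for 5 of the 9 members, against 31.1% of all genes, and 6 of 9 had an unadjusted p under 0.05, against 26.1% of all genes. The median log2 difference was −0.11 over the members and −0.08 over all genes kept. With replicate 3 of the Ndufa4 KO left out, 5 of 9 members were called, 3 higher (Itgax, Itgb2, Itgal) and 2 lower (Itgb7, Itgav). In that fit 1586 of the 11133 genes kept were called, 617 higher and 969 lower, against 956 with all 9 libraries.

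**Figure D2:**
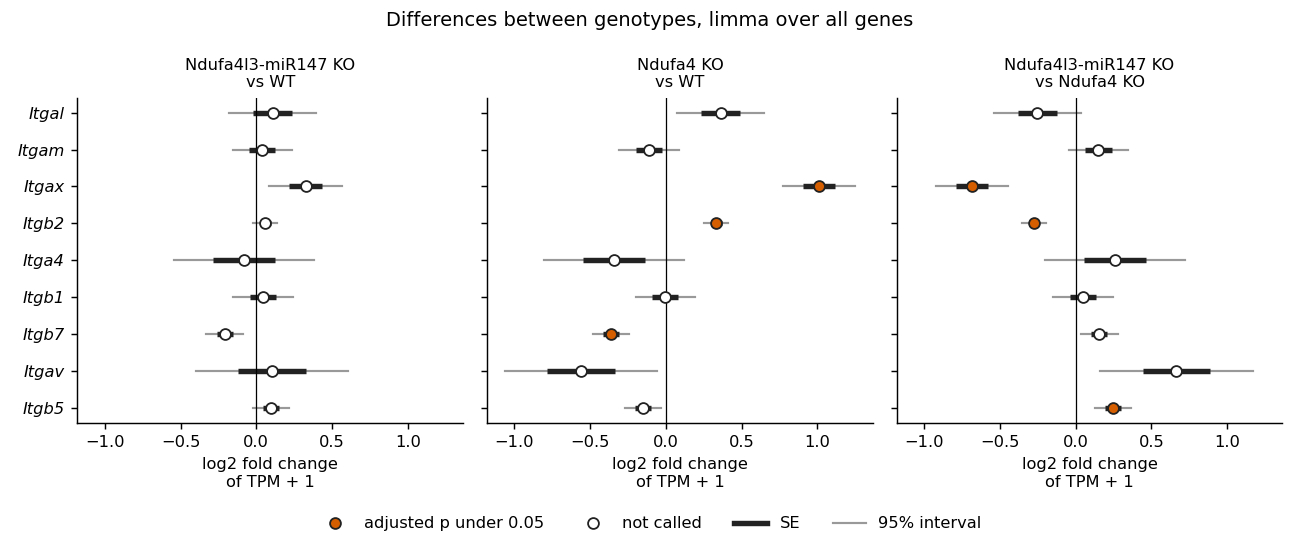
Log2 fold change of TPM + 1 for the 9 genes (rows) in the 3 comparisons (panels), from limma over all genes; thick lines are SE, thin lines 95% intervals, and filled points have an adjusted p under 0.05. Filled points are Itgax, Itgb2 and Itgb7 for Ndufa4 KO against WT, none for Ndufa4l3-miR147 KO against WT, and Itgax, Itgb2 and Itgb5 between the knockouts.

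In the Ndufa4l3-miR147 KO, Itgax lay above and Itgb7 below WT in every library, and neither was called in the fit to all 9 libraries. With limma 0 of 9 members were called, where 0.431% of all genes were called, and 2 of 9, Itgax and Itgb7, had an unadjusted p under 0.05, where 8.24% of all genes did. The members' libraries did not overlap for 6 of 9, against 23.9% of all genes, and the median log2 difference was 0.06 over the members and 0.00 over all genes. Itgax had 4.17, 4.90 and 4.03 TPM in Ndufa4l3-miR147 KO libraries, all above the WT libraries given above, with a log2 difference of 0.33 ± 0.11 and a 95% interval of 0.09 to 0.56 (limma adjusted p = 0.384). Itgb7 had 55.3, 53.5 and 56.4 TPM in Ndufa4l3-miR147 KO libraries, all below WT, with a log2 difference of −0.21 ± 0.05 (limma adjusted p = 0.223). Of the 21 alternatives, Itgb7 was called with only the 6 libraries compared and with library quality weights (lowest limma adjusted p = 0.0145). Itgax was called with those weights only (limma adjusted p = 0.0409). The 6-library fit called 306 of all genes and the weighted fit 538. Itgb2 had 540.0, 533 and 535 TPM in Ndufa4l3-miR147 KO libraries, above the WT libraries by 0.06 ± 0.04 on the log2 scale (limma adjusted p = 0.779).

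For the other members the differences from WT were small. Itgal had 45.3, 45.1 and 41.7 TPM, Itgam 166, 164 and 164 TPM, and Itgb1 348, 326 and 331 TPM in Ndufa4l3-miR147 KO libraries. Itga4 had 45.3, 42.0 and 41.6 TPM, Itgav 119, 109 and 115 TPM, and Itgb5 72.8, 72.3 and 73.3 TPM in the same libraries. The log2 differences of these 6 genes from WT lay between −0.08 for Itga4 and 0.11 for Itgal, with limma adjusted p of 0.731 or more. Their SE of up to 0.22 leaves a 95% interval of −0.40 to 0.61 for Itgav. That SE comes from a spread shared by the 3 genotypes, and Itgav was most variable in the Ndufa4 KO (75.4 ± 26.3 TPM, SD). In the genotypes compared it averaged 115 ± 5.10 TPM (Ndufa4l3-miR147 KO) and 107 ± 2.49 TPM (WT). A moderate difference in Itgav was thus not detectable in this fit.

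Directly compared, the Ndufa4l3-miR147 KO had less Itgax and Itgb2 and more Itgb5 than the Ndufa4 KO. These 3 of 9 members were called, where 3.24% of all genes were called, 1 higher (2.2% of all genes) and 2 lower (1.04%). Itgax averaged 4.37 ± 0.469 TPM in the Ndufa4l3-miR147 KO and 7.63 ± 0.762 TPM in the Ndufa4 KO (SD, n = 3 each), a log2 difference of −0.68 ± 0.11 (limma adjusted p = 0.0124). The Itgax call was lost without replicate 1 or replicate 3 of the Ndufa4l3-miR147 KO (limma adjusted p = 0.0650 and 0.0656), with differences of −0.66 and −0.64. Itgb2 averaged 536 ± 3.40 TPM in the Ndufa4l3-miR147 KO and 649 ± 7.81 TPM in the Ndufa4 KO, a log2 difference of −0.27 ± 0.04 (limma adjusted p = 0.00539). With only the 6 knockout libraries in the fit both calls were lost (limma adjusted p = 0.0818 for Itgax and 0.0677 for Itgb2).

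Itgb5 averaged 72.8 ± 0.491 TPM in the Ndufa4l3-miR147 KO and 61.3 ± 2.04 TPM in the Ndufa4 KO, a log2 difference of 0.24 ± 0.05 (limma adjusted p = 0.0408). That call stood near the threshold and held in 7 of 21 alternatives. It was lost when any WT library, any Ndufa4l3-miR147 KO library or replicate 2 of the Ndufa4 KO was left out, with limma adjusted p between 0.0549 and 0.157. Itgb7 differed by 0.16 ± 0.05 (limma adjusted p = 0.161) and Itgav by 0.66 ± 0.22 (limma adjusted p = 0.149). Without replicate 3 of the Ndufa4 KO, Itgal and Itgav were called as well, at −0.42 and 0.34, which made 5 of 9 members. That fit called 740 of the 11133 genes kept, 495 higher and 245 lower, against 361 with all 9 libraries. The knockouts did not overlap for 6 of 9 members, against 25.3% of all genes, and 5 had an unadjusted p under 0.05, against 20.3%. The median log2 difference was 0.15 over the members and 0.07 over all genes. All 3 comparisons share libraries, so their values are given side by side and not as separate support.

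The makeup of the α transcripts that pair with Itgb2 is given as shares, which were not tested. Of the summed TPM of Itgal, Itgam, Itgax and Itgad, Itgax made up 1.94%, 2.29% and 1.92% in Ndufa4l3-miR147 KO libraries and 3.51%, 3.56% and 3.88% in Ndufa4 KO libraries, against 1.59%, 1.62% and 1.60% in WT libraries. The Ndufa4l3-miR147 KO thus lay between both other genotypes and overlapped neither. Replicate 3 of the Ndufa4 KO had the highest Itgax share and, at 23.7%, the lowest Itgal share of its genotype. Itgal made up 20.7% ± 0.662 in the Ndufa4l3-miR147 KO, 25.3% ± 1.42 in the Ndufa4 KO and 20.0% ± 0.503 in WT (SD, n = 3 each). Itgam made up 77.2% ± 0.918 in the Ndufa4l3-miR147 KO, 71.0% ± 1.24 in the Ndufa4 KO and 78.4% ± 0.527 in WT, and so remained the main α transcript. After removal of the length trend the Itgax share averaged 2.06% in the Ndufa4l3-miR147 KO, 3.62% in the Ndufa4 KO and 1.60% in WT.

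Itgb2 exceeded the sum of its α chains in every library. The ratio of Itgb2 to that sum was 2.51, 2.49 and 2.56 in Ndufa4l3-miR147 KO libraries and 2.83, 2.88 and 3.69 in Ndufa4 KO libraries, against 2.51, 2.49 and 2.56 in WT libraries. The Ndufa4l3-miR147 KO and WT values were computed separately and are alike only after rounding, with means of 2.518 and 2.521. The value of 3.69 belongs to replicate 3 of the Ndufa4 KO, in which the long Itgal and Itgam transcripts were low. Within the α4 partners, Itgb7 made up 13.7%, 14.1% and 14.6% of Itgb1 and Itgb7 together in Ndufa4l3-miR147 KO libraries and 11.4%, 13.0% and 15.5% in Ndufa4 KO libraries, against 16.9%, 16.2% and 16.1% in WT libraries. Both knockouts lay below WT in every library, and replicate 3 of the Ndufa4 KO came nearest to it.

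**Figure D3:**
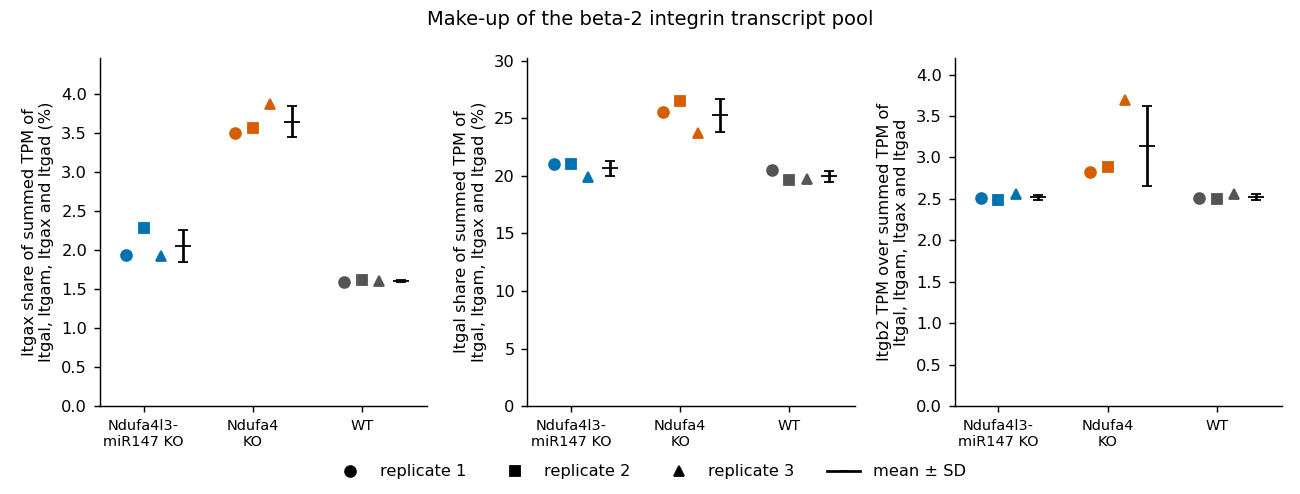
Left and middle, share of Itgax and of Itgal (%) in the summed TPM of Itgal, Itgam, Itgax and Itgad; right, Itgb2 TPM over that sum; symbols are libraries and bars mean ± SD of 3. The Itgax share is 3.51% to 3.88% in the Ndufa4 KO and 1.59% to 1.62% in WT, and the ratio of replicate 3 of the Ndufa4 KO, at 3.69, stands apart.

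The low values in replicate 3 of the Ndufa4 KO followed transcript length. Across 10673 of the 11133 genes kept (95.9% had a length), its deviation from the mean of replicates 1 and 2 correlated with the length of the longest coding transcript at a Spearman rho of −0.54. Genes of one library are not independent, so this is a description. The same figure lay between −0.08 and 0.12 in the Ndufa4l3-miR147 KO libraries and between −0.06 and 0.10 in the WT libraries, each set against the mean of the other 2 of its genotype. Replicates 1 and 2 of the Ndufa4 KO had 0.35 and 0.43, measured against a mean that includes replicate 3. Among the members the deviation was −0.97 for Itgav (7054 bases), −0.88 for Itga4 (9767 bases), −0.51 for Itgal (5222 bases), −0.35 for Itgam (4682 bases) and −0.32 for Itgb1 (3815 bases). It was −0.23 for Itgax (4046 bases), −0.08 for Itgb5 (3282 bases), −0.02 for Itgb2 (2970 bases) and 0.08 for Itgb7 (2683 bases), where the median of all genes was −0.11. Of the 3 members called against WT, Itgb2 and Itgb7 lay near 0 and Itgax lay below that median. A large deviation in 1 library widens the SE, which was 0.22 for Itgav and 0.04 for Itgb2 against WT. Members that deviate strongly are thus harder to call, so the smaller deviations of called members are no test of length. Whether length accounts for the low values of the longer genes was not tested. With the length trend removed from every library, the Ndufa4 KO differed from WT by 0.52 for Itgal, which was called (limma adjusted p = 0.0023), by −0.36 for Itgav and by −0.12 for Itga4.

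**Figure D4:**
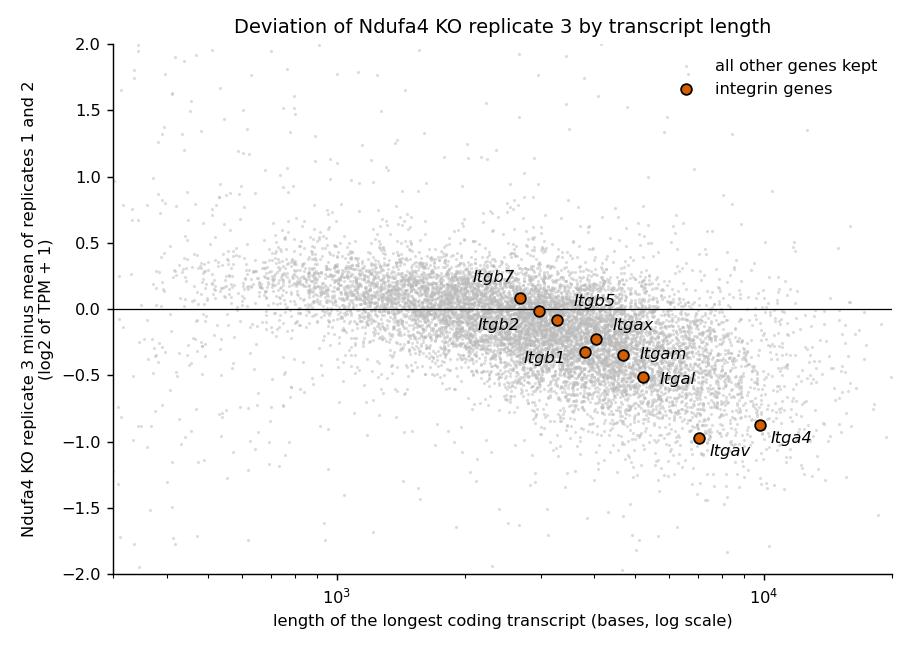
Deviation of replicate 3 of the Ndufa4 KO from the mean of replicates 1 and 2 (log2 of TPM + 1, vertical) by length of the longest coding transcript (bases, log scale, horizontal) for 10673 genes; 121 lie outside the axes. Itgav and Itga4, at −0.97 and −0.88, are the lowest of the 9 integrin genes, and Itgb2 and Itgb7 lie near 0.

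**Figure D5:**
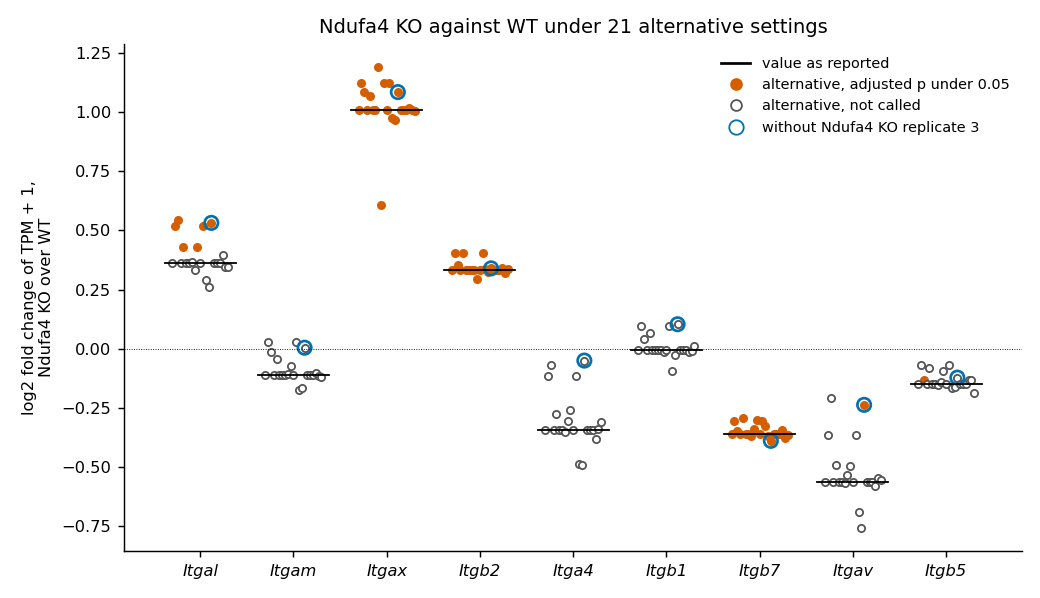
Log2 fold change of TPM + 1 for Ndufa4 KO over WT under 21 alternative settings; lines mark the values as reported, filled points an adjusted p under 0.05, open points none, and rings the fit without replicate 3 of the Ndufa4 KO. Itgax, Itgb2 and Itgb7 are filled throughout, Itgal in 6 settings and Itgav in 1.

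Of 18 other integrin subunit genes, 4 passed the filter (Itga5, Itga6, Itga8 and Itga9), so most subunits outside the leukocyte set were scarce here. Itga5, the fibronectin receptor α chain, had 69.9, 66.6 and 70.1 TPM in Ndufa4 KO libraries, against 57.5, 54.4 and 57.5 TPM in WT libraries, and rose by 0.28 ± 0.05 (limma adjusted p = 0.0132). That call was lost without any 1 of the WT libraries, with limma adjusted p up to 0.0694. In Ndufa4l3-miR147 KO libraries Itga5 had 68.1, 71.7 and 69.3 TPM, also above WT in every library, with a difference of 0.30 ± 0.05 that narrowly missed the threshold (limma adjusted p = 0.0519) and passed it without replicate 1 or replicate 3 of the Ndufa4 KO. Itga6, a laminin receptor α chain, averaged 98.7 ± 2.46 TPM in the Ndufa4l3-miR147 KO, 87.4 ± 16.2 TPM in the Ndufa4 KO and 86.8 ± 4.38 TPM in WT and was not called. The 4 genes had a median log2 difference of 0.24 for the Ndufa4l3-miR147 KO against WT, 0.13 for the Ndufa4 KO against WT and 0.10 between the knockouts. With limma 0 of the 4 were called in the Ndufa4l3-miR147 KO against WT (2 at an unadjusted p under 0.05) and 0 between the knockouts (1 at an unadjusted p under 0.05). Of all genes, 0.431% and 3.24% were called in these comparisons, and 8.24% and 20.3% had an unadjusted p under 0.05. In the Ndufa4 KO against WT, where Itga5 was called, 8.59% of all genes were. Over all genes the medians were 0.00, −0.08 and 0.07.

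Integrin ligands made by the macrophages differed in both directions. Of 26 genes listed, 14 passed the filter, and against WT 2 were called higher and 2 lower in the Ndufa4 KO and 1 and 1 in the Ndufa4l3-miR147 KO, with medians of 0.14 and 0.09. Of all genes, 2.83% were called higher and 5.76% lower in the Ndufa4 KO, and 0.243% higher and 0.189% lower in the Ndufa4l3-miR147 KO. Spp1 (osteopontin), which αv and α4 integrins bind, had 2306, 1983 and 1927 TPM in Ndufa4 KO libraries, against 3952, 3779 and 3946 TPM in WT libraries. It fell by 0.91 ± 0.07 (limma adjusted p = 0.00054), while the Ndufa4l3-miR147 KO had 3802, 3400.0 and 3468 TPM and differed from the Ndufa4 KO by 0.78 ± 0.07 (limma adjusted p = 0.000971). Both Spp1 calls held in all 21 alternatives. Icam2, a ligand of Itgal with Itgb2, averaged 6.74 ± 0.977 TPM in the Ndufa4 KO and 10.2 ± 1.09 TPM in WT and fell by 0.54 ± 0.12 (limma adjusted p = 0.0239). Plaur, the urokinase receptor, which binds integrins laterally, averaged 26.7 ± 2.96 TPM in the Ndufa4 KO and 17.9 ± 1.15 TPM in WT and rose by 0.55 ± 0.10 (limma adjusted p = 0.0142). The Icam2 call was lost without any 1 of the WT libraries and the Plaur call without WT replicate 2 or 3.

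Mfge8 bridges dying cells to αv integrins. It averaged 37.5 ± 0.810 TPM in the Ndufa4l3-miR147 KO, 49.7 ± 2.25 TPM in the Ndufa4 KO and 52.6 ± 3.61 TPM in WT, and fell in the Ndufa4l3-miR147 KO by 0.48 ± 0.06 against WT (limma adjusted p = 0.0192) and by 0.40 ± 0.06 against the Ndufa4 KO (limma adjusted p = 0.0149). Tgfb3, whose latent form αv integrins bind, averaged 6.06 ± 0.227 TPM in the Ndufa4l3-miR147 KO, 4.87 ± 0.153 TPM in the Ndufa4 KO and 3.11 ± 0.462 TPM in WT. It rose against WT in the Ndufa4l3-miR147 KO by 0.79 ± 0.10 (limma adjusted p = 0.0181) and in the Ndufa4 KO by 0.52 ± 0.10 (limma adjusted p = 0.0190). The calls of Mfge8 and Tgfb3 in the Ndufa4l3-miR147 KO against WT were each lost without WT replicate 1 or 3 or any 1 Ndufa4l3-miR147 KO library, and that of Tgfb3 in the Ndufa4 KO without WT replicate 1 or 3. The Mfge8 call between the knockouts was lost without any 1 Ndufa4l3-miR147 KO library.

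Between the knockouts 2 ligands were higher, Spp1 and Icam2, and 3 lower, Mfge8, Icam1 and C3, with a median of −0.07, where 2.2% of all genes were called higher and 1.04% lower. Icam1, the main ligand of Itgal and Itgam with Itgb2, averaged 232 ± 6.51 TPM in the Ndufa4l3-miR147 KO and 273 ± 6.01 TPM in the Ndufa4 KO and was lower by a log2 difference of −0.23 ± 0.04 (limma adjusted p = 0.0193). C3, the source of the iC3b ligand, averaged 32.4 ± 1.59 TPM in the Ndufa4l3-miR147 KO and 46.2 ± 5.06 TPM in the Ndufa4 KO, a difference of −0.50 ± 0.11 (limma adjusted p = 0.0414). Icam2 differed by 0.58 ± 0.12 (limma adjusted p = 0.0326). The Icam1, C3 and Icam2 calls were lost without any 1 Ndufa4l3-miR147 KO library and without WT replicate 2. Without WT replicate 1 the Icam1 and Icam2 calls were lost, without WT replicate 3 those of Icam2 and C3, and without replicate 1 or 2 of the Ndufa4 KO that of C3.

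Of 31 genes of integrin activation and trafficking 26 passed the filter, and talins, kindlins and Rap1 genes were not among those called. In the Ndufa4 KO against WT 2 rose and 2 fell, with a median of −0.02, where 8.59% of all genes were called. Dok2, an adaptor that competes with talin for β tails, averaged 132 ± 6.28 TPM in the Ndufa4 KO and 98.6 ± 1.62 TPM in WT and rose by 0.41 ± 0.06 (limma adjusted p = 0.00479). Cd81, a tetraspanin found with integrins in the membrane, averaged 104 ± 1.38 TPM in the Ndufa4 KO and 136 ± 4.99 TPM in WT and fell by 0.39 ± 0.06 (limma adjusted p = 0.00486). Both held in all 21 alternatives. Flna, which also binds β tails, rose by 0.25 ± 0.06 (limma adjusted p = 0.0312), and Rasa3, a GTPase-activating protein for Rap1, fell by 0.28 ± 0.06 (limma adjusted p = 0.0307). Each of these calls held in 9 of 21 alternatives and was lost without any 1 of the WT libraries, without replicate 2 or 3 of the Ndufa4l3-miR147 KO and, for Flna, also without its replicate 1. Without replicate 2 of the Ndufa4 KO the Flna call was lost, and without replicate 1 that of Rasa3. With the length trend removed the Flna difference was 0.46 and that of Rasa3 −0.15, and neither was called.

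In the Ndufa4l3-miR147 KO against WT limma called 0 genes of the activation list, and 0 had an unadjusted p under 0.05; the most abundant, Rap1b and Cd9, differed by 0.15 ± 0.10 and 0.08 ± 0.07. Between the knockouts Cd81 was higher by 0.28 ± 0.06 (limma adjusted p = 0.0317) and Dok2 lower by a log2 difference of −0.34 ± 0.06 (limma adjusted p = 0.0178), where 3.24% of all genes were called. The Dok2 call was lost without replicate 2 or 3 of the Ndufa4l3-miR147 KO. The Cd81 call was lost without any 1 WT or Ndufa4l3-miR147 KO library or replicate 1 of the Ndufa4 KO.

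Downstream of integrins 34 of 40 signalling and adhesome genes passed the filter, of which 2 rose and 3 fell in the Ndufa4 KO against WT (median −0.09), where 8.59% of all genes were called. Arhgef6, a Rac exchange factor bound to parvin, averaged 63.5 ± 10.2 TPM in the Ndufa4 KO and 99.5 ± 2.58 TPM in WT and fell by 0.65 ± 0.10 (limma adjusted p = 0.00780), a call that held in all 21 alternatives. Actn1, an actin crosslinker of adhesions, rose by 0.25 ± 0.05 (limma adjusted p = 0.0253). Syk and Ilk, which act at integrin tails and their adaptors, fell by 0.20 ± 0.05 and 0.19 ± 0.05 (limma adjusted p = 0.0405 and 0.0450). The Actn1, Syk and Ilk calls held in 13, 7 and 6 of 21 alternatives, and each was lost without any 1 of the WT libraries. They were also lost without replicate 2 or 3 of the Ndufa4l3-miR147 KO, and the Syk and Ilk calls without its replicate 1 and without replicate 1 of the Ndufa4 KO. The Actn1 and Ilk calls were lost without replicate 2 of the Ndufa4 KO. The Syk difference shrank to −0.04 with the length trend removed (limma adjusted p = 0.774) and to −0.13 under median-of-ratios size factors, which also brought the Ilk difference to −0.12, neither called.

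Against WT, limma called 0 signalling genes in the Ndufa4l3-miR147 KO, where 7 had an unadjusted p under 0.05 (8.24% of all genes did) and Fcer1g, the most abundant, differed by 0.04 ± 0.07. Between the knockouts 1 was called higher and 1 lower, against 3.24% of all genes. The higher was Lpxn, a paxillin relative, which averaged 178 ± 2.02 TPM in the Ndufa4l3-miR147 KO and 139.9 ± 15.3 TPM in the Ndufa4 KO, a difference of 0.35 ± 0.07 (limma adjusted p = 0.0368). The Lpxn call was lost without any 1 WT or Ndufa4l3-miR147 KO library or replicate 2 of the Ndufa4 KO.

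Of 20 transcription factors known for myeloid integrin genes 16 passed the filter, and 1 was called in the Ndufa4 KO against WT, 0 in the Ndufa4l3-miR147 KO against WT (8 had an unadjusted p under 0.05 in limma, where 8.24% of all genes did) and 1 between the knockouts. Over all genes 8.59%, 0.431% and 3.24% were called in the same comparisons. Spi1 (PU.1), which drives Itgam and Itgb2 in myeloid cells, averaged 395 ± 3.40 TPM in the Ndufa4l3-miR147 KO, 420.3 ± 45.6 TPM in the Ndufa4 KO and 397 ± 14.0 TPM in WT, with overlapping libraries. Irf8, a factor of monocytes and dendritic cells, averaged 588 ± 12.8 TPM in the Ndufa4l3-miR147 KO, 582 ± 43.5 TPM in the Ndufa4 KO and 555 ± 5.41 TPM in WT and was not called. Id2, needed for dendritic cell development, averaged 164 ± 22.4 TPM in the Ndufa4 KO and 129 ± 4.10 TPM in WT and rose by 0.34 ± 0.09 (limma adjusted p = 0.0450), a call lost without any 1 WT or Ndufa4l3-miR147 KO library. Batf3 was lower in the Ndufa4l3-miR147 KO, at 16.7 ± 2.18 TPM, than in the Ndufa4 KO, at 26.1 ± 3.27 TPM, by a log2 difference of −0.61 ± 0.13 (limma adjusted p = 0.0382), a call lost without any 1 WT or Ndufa4l3-miR147 KO library or replicate 2 of the Ndufa4 KO. The list's median was 0.12 for the Ndufa4l3-miR147 KO against WT, −0.02 for the Ndufa4 KO against WT and 0.17 between the knockouts.

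The genes whose levels followed Itgax most closely over the 9 libraries were Actg1 (Pearson r = 0.986 of log2(TPM + 1)), Actb (0.981), Ass1 (0.980) and Mcm2 (0.979), among 8801 genes with a mean of at least 5 TPM. Actg1 was also nearest to Itgb2 (0.984), while Tmem50a was nearest to Itgb7 (0.982) and Zscan21 to Itgb5 (0.974). The 9 libraries form 3 genotypes, so these figures mostly record the difference between genotypes and are a description. Actg1, cytoplasmic γ-actin, averaged 1737 ± 7.17 TPM in the Ndufa4l3-miR147 KO, 2163 ± 80.2 TPM in the Ndufa4 KO and 1623 ± 15.9 TPM in WT. In the Ndufa4 KO against WT it rose by 0.41 ± 0.04 (limma adjusted p = 0.000881), Actb, β-actin, by 0.36 ± 0.05 (limma adjusted p = 0.00458), Ass1, of arginine synthesis, by 0.51 ± 0.06 (limma adjusted p = 0.00156) and Mcm2, of the replicative helicase, by 0.34 ± 0.05 (limma adjusted p = 0.00668), all in 21 of 21 alternatives. The Actb difference was smaller, 0.19, with quantile normalization.

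Because Itgax is shared with dendritic cells, markers of other cells are given beside it. In bulk RNA, more cells of a type and more RNA per cell cannot be told apart. Of 10 dendritic cell markers 3 passed the filter (Clec9a, Xcr1 and Clec10a), and their list summed to 36.3 to 40.4 TPM in Ndufa4l3-miR147 KO, 45.6 to 80.2 TPM in Ndufa4 KO and 32.7 to 37.5 TPM in WT libraries. Clec9a alone made up most of that sum in every library. Clec9a, a receptor for dead cells on cross-presenting dendritic cells, had 73.4, 53.5 and 38.7 TPM in Ndufa4 KO libraries, against 25.3, 27.7 and 27.1 TPM in WT libraries, and rose by 0.98 ± 0.19 (limma adjusted p = 0.0166). That call was lost without any 1 of the WT libraries, with limma adjusted p up to 0.0723. The defining genes Flt3 and Zbtb46 stayed under 1 TPM in every library. Xcr1, on the same cells, averaged 1.99 ± 0.738 TPM in the Ndufa4 KO and 1.45 ± 0.276 TPM in WT, and Clec10a 3.21 ± 0.224 TPM in the Ndufa4 KO and 5.42 ± 1.46 TPM in WT, neither called. Of 10 macrophage markers 8 passed the filter. In the Ndufa4 KO against WT Lyz2 rose and Cd14, Mertk and Mrc1 fell, where 8.59% of all genes were called. Adgre1, Csf1r, Cd68 and Fcgr1 were not called (limma adjusted p of 0.333 to 0.896). The largest change was that of Cd14, at 85.5, 81.9 and 88.1 TPM in Ndufa4 KO libraries, against 159.6, 151 and 149 TPM in WT libraries. The Cd14 call held in all 21 alternatives. The Lyz2 call held in 16 of 21, with differences of 0.07 to 0.31. It was lost with quantile normalization, with no filter on low values, with only the 6 libraries compared and without WT replicate 1 or 2 (limma adjusted p up to 0.289). The Mertk and Mrc1 calls held in 10 and 11 of 21 alternatives and were lost without any 1 WT or Ndufa4l3-miR147 KO library. Between the knockouts Cd14 averaged 127 ± 6.97 TPM in the Ndufa4l3-miR147 KO and 85.2 ± 3.10 TPM in the Ndufa4 KO, a difference of 0.57 ± 0.06 (limma adjusted p = 0.00146). Lyz2 averaged 4094 ± 68.7 TPM in the Ndufa4l3-miR147 KO and 5414 ± 234 TPM in the Ndufa4 KO, a difference of −0.40 ± 0.04 (limma adjusted p = 0.00171). Clec9a was not called there, at −0.81 ± 0.19 (limma adjusted p = 0.0544).

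Neutrophils also express the β2 integrins. Their list of 10, of which 6 passed the filter, summed to 39.4 to 76.8 TPM in Ndufa4l3-miR147 KO, 1.80 to 40.1 TPM in Ndufa4 KO and 4.35 to 83.2 TPM in WT libraries, with wide overlap. The T and NK cell list summed to 42.9 to 46.9 TPM in Ndufa4l3-miR147 KO, 32.1 to 47.0 TPM in Ndufa4 KO and 34.8 to 38.1 TPM in WT libraries, with 3 of 10 genes past the filter. Most of that sum was Il7r, at 37.5 to 42.3 TPM in Ndufa4l3-miR147 KO, 28.2 to 41.3 TPM in Ndufa4 KO and 29.5 to 33.3 TPM in WT libraries. Cd3e was at 0 in every knockout library and at most at 0.0778 TPM in WT. B cell markers, 0 of 8 past the filter, summed to at most 1.65 TPM in any library. The megakaryocyte, basophil, mast and erythroid list, 1 of 10 past the filter, summed to 12.9 to 29.9 TPM in Ndufa4l3-miR147 KO, 6.18 to 18.3 TPM in Ndufa4 KO and 4.71 to 51.4 TPM in WT libraries. Stromal genes, 5 of 9 past the filter, summed to 38.7 to 47.5 TPM in Ndufa4l3-miR147 KO, 7.76 to 132 TPM in Ndufa4 KO and 9.15 to 46.5 TPM in WT libraries. The upper value is from replicate 3 of the Ndufa4 KO, with Col3a1 at 116 TPM. The part of any of these cells in the integrin differences was not tested.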

How the data were processed

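Polyadenylated RNA of interferon-treated macrophages was measured in 9 libraries, 3 per genotype. The authors deposited TPM in 1 table. The submitters' processing notes name the tools kallisto, DESeq2 and edgeR and the builds mm10 and GRCm39, with no version or role; the annotation release is not given in the sources used here. TPM are shares of a fixed total divided by a modelled length, so a gain in abundant genes lowers the rest, and coverage of long transcripts moves their values. Library depth is unknown from such values, which give no counting interval. An entry without a gene name (under 0.003% of each library) was left out.

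The scale used was log2(TPM + 1), for genes reaching 1 TPM in 3 or more libraries. In limma 3.58.1 (R 4.3.3), all 9 libraries entered a single linear model of genotype whose variance prior followed mean intensity, and two-sided p-values were adjusted by Benjamini-Hochberg over all 11133 genes kept. The limma fit was tried on simulated data with errors independent between genes and no length trend. That trial therefore does not cover a library that deviates with length, as replicate 3 of the Ndufa4 KO did. Removal of the length trend was tried separately, on a planted trend. Gene positions, lengths and shared 31-base words came from GENCODE M21 (GRCm38) and promoters from RefSeq (GRCm38.p6), where 7 of the 9 integrin genes were matched. Neither need be the annotation behind the TPM. Of 135 listed genes, 134 were found. The 21 alternatives changed the pseudocount, filter, scaling, length trend, variance model, libraries fitted or replicate block, or left out 1 library.

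The genes named are the 9 integrin genes, the targeted genes, per list and comparison up to 3 called genes in each direction (or the 2 most abundant where none was called), the genes nearest to called members, and markers a result turns on; 1 gene that this rule names is not reported here. The members and lists were chosen with earlier results of these data known.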

Additional observations from a re-analysis of the deposited data

How the results depend on the processing

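For the 9 integrin genes, 515 of the alternative fold changes kept direction and side of the threshold, 18 passed it newly, 18 no longer passed and 16 changed sign. In the Ndufa4 KO against WT, Itgax, Itgb2 and Itgb7 were called in all 21 alternatives. With library quality weights the integrin genes called numbered 2 for the Ndufa4l3-miR147 KO against WT, 5 for the Ndufa4 KO against WT and 6 between the knockouts, and all genes called numbered 538, 3045 and 1726. The weights were 0.341, 3.67 and 0.101 for replicates 1 to 3 of the Ndufa4 KO, so its mean rested mostly on replicate 2. WT and Ndufa4l3-miR147 KO libraries had weights of 0.944 to 1.96. With only the 6 libraries compared the counts of calls were 1, 3 and 0 for the integrin genes and 306, 238 and 64 for all genes, against 48, 956 and 361 in the fit to 9 libraries. For the Ndufa4l3-miR147 KO against WT, 74 genes were called with the length trend removed and 30 without the intensity trend. Median-of-ratios scaling moved the split for the Ndufa4 KO against WT to 492 higher and 453 lower (315 and 641 as reported), and between the knockouts to 149 and 153 (245 and 116 as reported). Quantile normalization gave 499 and 458, and 193 and 187. The cause of these changes was not tested.

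Leaving out 1 library gave 0 to 0, 3 to 5 and 1 to 5 integrin genes called in the 3 comparisons, and 13 to 198, 266 to 1586 and 82 to 740 of all genes; the highest counts in the last 2 comparisons and the 198 came without replicate 3 of the Ndufa4 KO. The 13 came without WT replicate 1, the 266 without WT replicate 1 or 2, and the 82 without replicate 1 of the Ndufa4l3-miR147 KO. The fit with a replicate block called 24, 661 and 162 of all genes and 0, 3 and 2 integrin genes, losing Itgb5 between the knockouts. Same-numbered libraries correlated between −0.138 and 0.179 in their deviations from the genotype means, not always over 0.1, so the numbers were not taken to pair the libraries.

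No value that changed sign was called, as reported or under the alternative that turned it. For the Ndufa4 KO against WT, Itgam was 0.027 with the length trend removed, with or without the replicate block, and −0.176 to 0.0041 with 1 library left out. Itgb1 was 0.065 with median-of-ratios scaling, 0.096 with the length trend removed (the same with the block), 0.042 with quality weights and −0.093 to 0.103 with 1 library left out. Between the knockouts, Itgb1 was −0.022, −0.049 (the same with the block), −0.0058 and −0.060 to 0.136 under the same settings. Itga4 was −0.026 with quality weights and −0.032 to 0.409 with 1 library left out. Itga5 between the knockouts was −0.052 with median-of-ratios scaling, −0.037 with quantile normalization, −0.107 with the length trend removed (the same with the block) and −0.0066 to 0.034 with 1 library left out. Spi1 in the Ndufa4l3-miR147 KO against WT was −0.0364 to 0.014 with 1 library left out. The replicates are technical per the labels, so the spread between mice is unknown, as is depth.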
